A study of Mus musculus with 21 samples.

Results

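The 29 fatty acid oxidation genes described here encode proteins that carry fatty acids into mitochondria and peroxisomes, activate them and shorten them. They were chosen by gene symbol and not by a rule on measured values, though with earlier results of these data known. They comprise 7 genes of transport and the carnitine shuttle and 4 of acyl-CoA activation and hydrolysis. A further 15 belong to mitochondrial beta-oxidation and electron transfer, and 3 to peroxisomal beta-oxidation. All 29 symbols were found, each with 1 gene model among the 28541 models of the tables, and all 29 passed the expression filter in every main fit. RNA of whole tissue from mice was sequenced after ribosomal RNA depletion. The tissues were brown adipose tissue (BAT), a fat depot that burns lipid for heat, and white vastus (WV), the pale, fast-contracting part of a thigh muscle. Floxed littermates served as controls for BATI4KO mice, and there were 5 floxed and 6 BATI4KO libraries of BAT and 5 of each genotype in WV. From knowledge of the study, BATI4KO mice lack the transcription factor Irf4 in brown adipocytes through a Cre recombinase driven by the Ucp1 promoter, and floxed mice carry the loxP-flanked Irf4 gene without it. Other cells of the depot keep Irf4. The labels give no strain, age, sex, housing temperature or Cre driver, and do not tie libraries to single animals, so the p-values below measure the spread between these libraries, which may be technical.

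Beta-oxidation removes a pair of carbons per cycle from an acyl-CoA. Long-chain acyl groups are made into acyl-CoA by acyl-CoA synthetases, passed to carnitine by carnitine palmitoyltransferase 1 at the outer mitochondrial membrane, carried across the inner membrane by a translocase and returned to CoA by carnitine palmitoyltransferase 2. Chain-length specific acyl-CoA dehydrogenases then start each cycle, and their electrons reach the respiratory chain through the electron transfer flavoprotein. Brown adipocytes feed this pathway from stored triglyceride during heat production, muscle fibres use it for endurance work, and peroxisomes shorten very long chains. The muscle-type carnitine palmitoyltransferase is Cpt1b, and the liver-type one is Cpt1a.

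Library totals ran from 20219479 to 41773148 counts in BAT and from 30479508 to 40328627 in WV. Irf4, the targeted gene, stood at 29.2 ± 12.3 CPM (counts scaled to library size; SD, n = 5) in floxed BAT and at 5.36 ± 0.40 (n = 6) in BATI4KO BAT. The groups did not overlap, with 17.9 to 43.5 CPM against 4.92 to 5.95. The values in WV were 5.10 ± 1.22 CPM for floxed and 3.73 ± 0.45 CPM for BATI4KO mice (n = 5 each). Libraries are named here as in their titles, FX for floxed and KO for BATI4KO. Of the BAT titles, 3 per genotype end in a short number (FX_1 to FX_3, KO_1 to KO_3), while every other title in either tissue ends in a long tag such as FX_5497; the meaning of this title style is not stated. Tissue identity matched the labels: Ucp1 was between 1016 and 5692 CPM in BAT and at most 0.412 CPM in WV, while the fast myosin Myh4 was between 42242 and 127474 CPM in WV. BAT held muscle fibre RNA, the 15 markers summing to 140 to 1093 CPM in floxed and 571 to 16828 CPM in BATI4KO libraries, the highest in KO_3.

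Reads of 2 members cannot be cleanly separated. Acot1 and Acot2 are neighbouring thioesterase genes, the first cytosolic and the second mitochondrial, and 23.7% of the 50-base words of the longest Acot1 coding transcript also occur in Acot2. Their longest identical coding run was 273 bases. It is printed for both genes in capitals, with 12 flanking bases in lower case on each side, because a read that lies inside the capitals fits either gene. The Acot1 stretch lies at chr12:84016994-84017290 and the Acot2 stretch at chr12:83992716-83993012 (GENCODE M21 on GRCm38, forward strand, both within a coding exon).
Acot1: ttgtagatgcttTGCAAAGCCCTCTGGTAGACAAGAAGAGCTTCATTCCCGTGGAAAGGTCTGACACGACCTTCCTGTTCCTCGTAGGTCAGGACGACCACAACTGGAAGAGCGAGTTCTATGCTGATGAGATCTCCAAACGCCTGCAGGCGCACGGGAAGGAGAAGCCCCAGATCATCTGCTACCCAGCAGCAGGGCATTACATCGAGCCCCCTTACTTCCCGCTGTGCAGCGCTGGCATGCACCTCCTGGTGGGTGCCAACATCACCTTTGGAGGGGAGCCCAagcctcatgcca
Acot2: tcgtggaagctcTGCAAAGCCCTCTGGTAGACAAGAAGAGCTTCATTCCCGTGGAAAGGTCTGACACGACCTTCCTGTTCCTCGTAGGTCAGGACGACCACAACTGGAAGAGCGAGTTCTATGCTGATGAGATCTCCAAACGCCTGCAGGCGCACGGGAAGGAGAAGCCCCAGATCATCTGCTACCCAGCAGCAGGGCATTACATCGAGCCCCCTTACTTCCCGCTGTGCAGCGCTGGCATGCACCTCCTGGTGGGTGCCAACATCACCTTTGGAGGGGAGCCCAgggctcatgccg
How the authors' counting treated such reads is not given in the sources used here, so the values of Acot1 and Acot2 are uncertain. Acaa1a shared 34.0% of its words with Acaa1b. Cpt1a and Cpt1b shared none, nor did Acsl1 and Acsl5. Crat, Echs1, Etfb, Etfdh and Fabp3 overlap another protein-coding gene in RefSeq GRCm38.p6, and without a stated strand setting their reads may include those of the neighbour.

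Promoter windows from RefSeq (GRCm38.p6), 250 bases before to 50 after the start, were found for 24 of the 29 genes. Cpt1b, Hsd17b4, Decr1, Crat and Acaa2 had no entry. The PPAR element (AGGTCA repeated after 1 base of any kind), the oestrogen-related receptor element TCAAGGTCA and the interferon response core (GAAA repeated after 2 bases of any kind), each searched on both strands, matched none of the 24 windows. They occurred in 0.0481%, 0.466% and 3.99% of the 27025 genes with a window. The nuclear receptor core AGGTCA, chosen after those results were seen and contained in the first pair of motifs, was in the windows of 4 of 24 members, against 18.1% of all genes. These stretches are printed with the match in capitals, on the gene's strand, for the medium-chain and very-long-chain acyl-CoA dehydrogenases Acadm and Acadvl, for Cpt1a and for the enoyl-CoA hydratase Echs1. In Acadm and Cpt1a the match is on the opposite strand and reads TGACCT. Coordinates are chr3:153944860-153944893 (minus strand) for Acadm, chr11:70015483-70015542 (minus) for Acadvl, chr19:3323180-3323239 (plus) for Cpt1a and chr7:140116472-140116531 (minus) for Echs1.
Acadm: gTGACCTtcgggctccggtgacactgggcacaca
Acadvl: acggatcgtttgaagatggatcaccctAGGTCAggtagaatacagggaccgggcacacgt
Cpt1a: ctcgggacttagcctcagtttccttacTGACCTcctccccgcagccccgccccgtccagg
Echs1: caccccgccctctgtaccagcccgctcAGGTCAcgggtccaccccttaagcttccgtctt
The matches began 249, 87, 94 and 83 bases before the start. A match of these letters is a description of the sequence only.

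Levels are given per length, as RPKM (reads divided by the length of the gene model and by the scaled library size), on 1 library scaling for both tissues. In floxed BAT the trifunctional protein subunit Hadhb was at 1544 ± 351 RPKM (SD, n = 5) and the mitochondrial thiolase Acaa2 at 1035 ± 139. Next came Acadm at 771 ± 188, the synthetase Acsl1 at 720 ± 248, the dienoyl-CoA isomerase Ech1 at 706 ± 203 and the long-chain dehydrogenase Acadl at 704 ± 93.9. These last 4 lay within each other's spread. At the low end stood Acot2 at 23.5 ± 6.12, Cpt1a at 4.09 ± 0.287 and Acot1 at 2.01 ± 1.30 RPKM.

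The order in floxed WV differed at the top. Fabp3, the fatty acid binding protein of heart and muscle, was first at 450 ± 272 RPKM (SD, n = 5), followed by Hadhb at 285 ± 58.4, Acadm at 201 ± 58.1, Ech1 at 184 ± 36.8 and the electron transfer flavoprotein subunit Etfb at 181 ± 41.8. The SD of Fabp3 covers the step to Hadhb. Cpt1b at 134 ± 28.8 and the carnitine acetyltransferase Crat at 128 ± 34.8 came next and did not differ beyond their spread. The lowest were the peroxisomal bifunctional enzyme Ehhadh at 4.12 ± 0.571, Acsl5 at 2.69 ± 0.970 and Acot1 at 0.292 ± 0.168. The 4 highest ranks in BATI4KO BAT went to Hadhb, Acaa2, Acadm and Ech1, and the 7 highest in BATI4KO WV were the 7 of floxed WV in the same order. The gene models of Hadh, Echs1 and Etfdh are 2.74, 3.10 and 2.79 times as long as the longest coding transcript in GENCODE M21. Their reads are divided by that longer length, and how many reads the added bases hold was not tested.

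**Figure D1:**
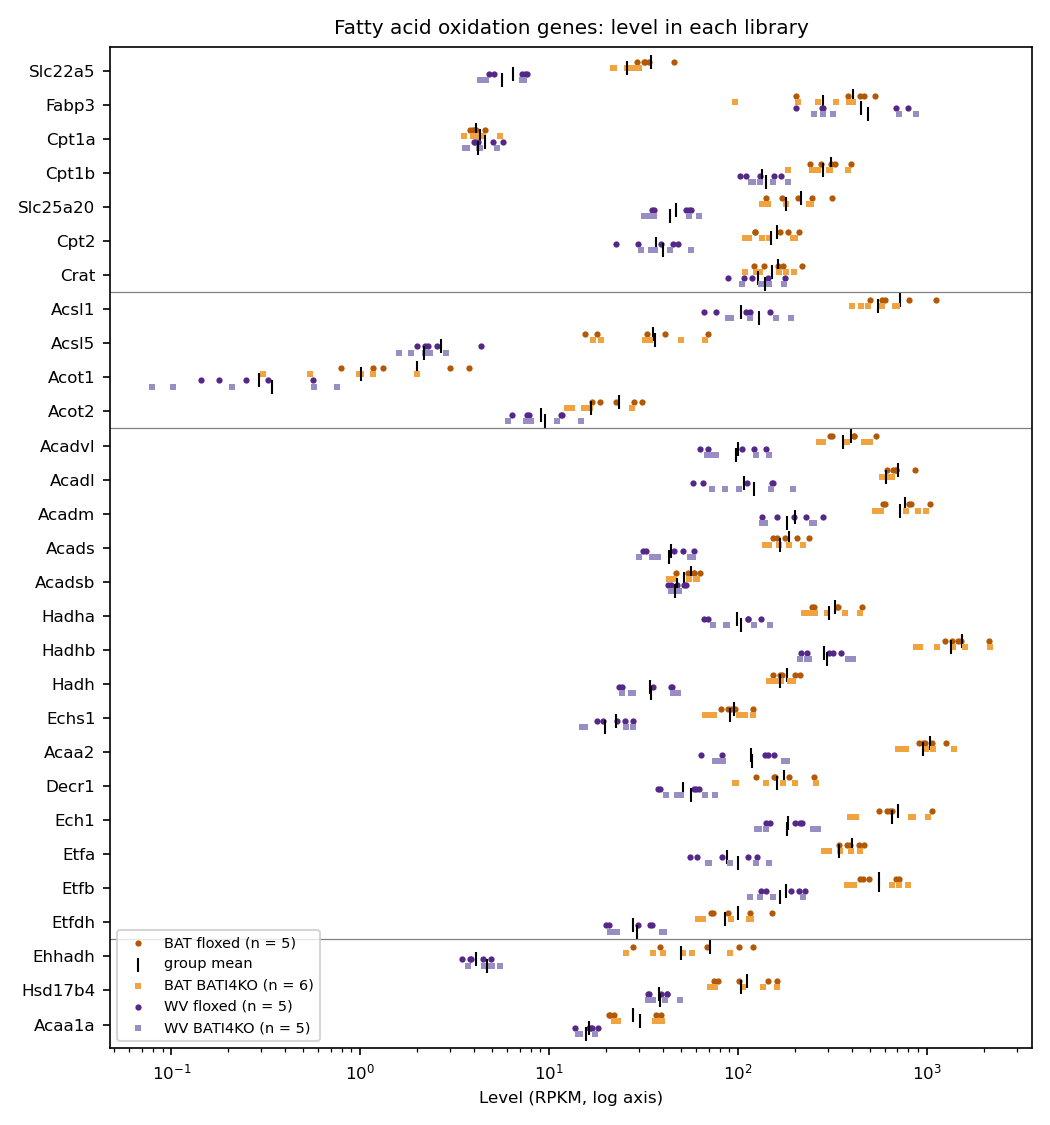
Level of each of the 29 genes in each library (x axis, RPKM, log scale), grouped by role from transport (top) to peroxisomal genes (bottom); points are libraries of the 4 groups and vertical ticks are group means. In floxed BAT, Hadhb was at 1544 and Acot1 at 2.01 RPKM. In both genotypes, the points of the tissues overlap for Cpt1a, Crat, Fabp3 and Acadsb, and in BATI4KO mice also for Cpt1b, Acot1 and Acot2.

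Brown fat carried most of the pathway at a higher level than white vastus. In floxed mice, 27 of the 29 genes were higher in BAT at an adjusted p under 0.05 (edgeR quasi-likelihood test with Benjamini-Hochberg adjustment over 16632 genes, all libraries in 1 fit with the title style as covariate). Over all genes tested the share called higher was 34.1%. No member was lower, against 31.7% of all genes. The median difference of the members was 2.33 on the log2 scale, against 0.11 for all genes. A log2 difference above 2 was reached by 22 of 29 members and by 8.32% of all genes. In 25 members every floxed BAT library lay above every floxed WV library, against 26.3% of all genes. With the covariate, the fitted differences refer to the long-tag BAT libraries.

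In floxed mice, the log2 difference between the tissues was largest among the 29 genes for the peroxisomal Ehhadh and for Acsl5, followed by Acaa2 of the mitochondrial cycle and then Acot1 and Acsl1 of the activation group. Ehhadh was at 27.9, 38.9, 68.9, 120 and 101 RPKM in floxed BAT libraries FX_1, FX_2, FX_3, FX_5497 and FX_5503, and at 3.48 to 4.93 RPKM in the 5 floxed WV libraries. The lowest BAT library was several times the highest WV library. The fitted log2 difference of Ehhadh was 4.54 (SE 0.30), adjusted p = 2.16e-11. Acsl5, a synthetase known from intestine and liver, was at 33.1, 15.5, 18, 40.9 and 69.9 RPKM in floxed BAT and at 1.99 to 4.38 in floxed WV, a log2 difference of 4.28 (SE 0.32), adjusted p = 1.30e-10. Acsl1, the main synthetase of adipocytes, was at 503 to 1115 RPKM against 66.3 to 148, a difference of 3.14 (SE 0.27), adjusted p = 1.51e-09. Acot1 was at 0.796 to 3.79 against 0.144 to 0.566 RPKM, a difference of 3.36 (SE 0.51), adjusted p = 6.51e-06, on 9 to 47 reads per floxed WV library. Its mitochondrial neighbour Acot2 differed by 1.69 (SE 0.24), adjusted p = 3.11e-06, with 16.9 to 31.3 against 6.40 to 11.8 RPKM. The other peroxisomal members, the bifunctional protein Hsd17b4 and the thiolase Acaa1a, differed by 2.003 (SE 0.15) and 1.19 (SE 0.10).

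Within the mitochondrial cycle, all 15 genes were higher in BAT. Their median log2 difference was 2.33, and the range was 0.41 to 3.41. Acaa2, a thiolase that splits off acetyl-CoA at the end of a cycle, led with 915 to 1264 RPKM in floxed BAT against 64.0 to 155 in floxed WV. Its difference was 3.41 (SE 0.33), adjusted p = 7.39e-09. Hadhb was at 1244 to 2143 against 216 to 352 RPKM, a difference of 2.79 (SE 0.27), adjusted p = 7.77e-09. Acadl was at 619 to 864 against 58.0 to 153 RPKM, a difference of 2.72 (SE 0.31), adjusted p = 1.18e-07. The short/branched-chain dehydrogenase Acadsb, which acts in isoleucine breakdown, had the smallest difference of the 15. It was at 47.3 to 62.7 RPKM in floxed BAT and 42.5 to 53.2 in floxed WV, so the groups overlapped, and the difference was 0.41 (SE 0.11), adjusted p = 0.00272.

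The transport genes were split. The carnitine-acylcarnitine translocase Slc25a20 was at 141 to 317 RPKM in floxed BAT and 35.3 to 56.4 in floxed WV, a difference of 2.57 (SE 0.22), adjusted p = 1.19e-09. The carnitine transporter Slc22a5 and the inner carnitine palmitoyltransferase Cpt2 differed by 2.47 (SE 0.20) and 2.42 (SE 0.23). Cpt1b was at 240 to 395 against 102 to 170 RPKM, a smaller difference of 1.48 (SE 0.20), adjusted p = 9.64e-07. Crat, which buffers acetyl groups as acetylcarnitine, differed by 0.65 (SE 0.20), adjusted p = 0.00746, with overlapping groups. Fabp3 and Cpt1a did not pass. Fabp3 had a difference of 0.16 (SE 0.51), adjusted p = 0.796, and Cpt1a one of −0.11 (SE 0.15), adjusted p = 0.539. Cpt1a was at 3.80 to 4.57 RPKM in floxed BAT and 4.01 to 5.68 in floxed WV. Its sign depends on the scaling, with 0.01 under upper-quartile scaling and 0.56 (adjusted p = 0.0145) with library totals, which move the median of all genes to 0.79.

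**Figure D2:**
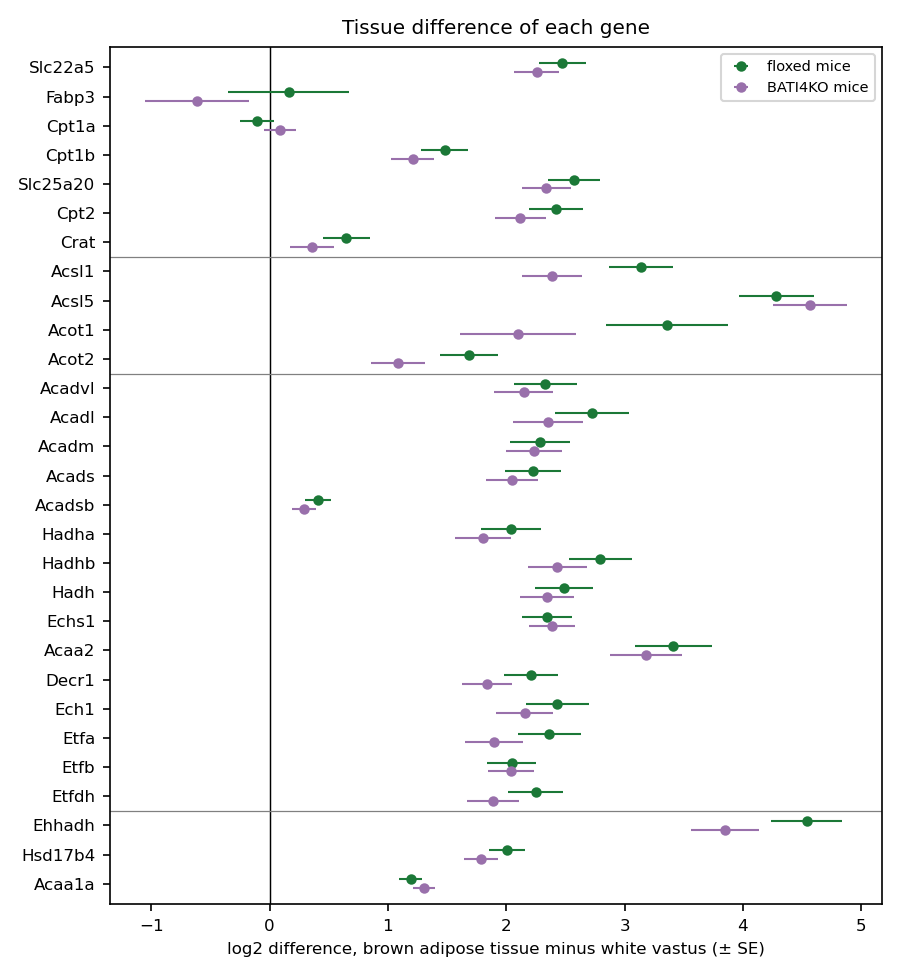
Fitted log2 difference between BAT and WV (x axis, ± SE) for each of the 29 genes in floxed and in BATI4KO mice. Ehhadh and Acsl5 lie farthest to the right at 4.54 and 4.28 in floxed mice, and Cpt1a and Fabp3 lie at 0 within about 1 SE in floxed mice.

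The tissue comparison in BATI4KO mice had 26 members higher in BAT, against 37.4% of all genes, and none lower, against 33.1%. Both genotypes were tested in the same fit, on separate libraries. The median difference of the members was 2.10 on the log2 scale, against 0.14 for all genes, and 22 members did not overlap between the tissues, against 28.8% of all genes. Acsl5 differed by 4.56 (SE 0.31), Ehhadh by 3.85 (SE 0.29), Acaa2 by 3.18 (SE 0.31), Hadhb by 2.43 (SE 0.25), Echs1 by 2.39 (SE 0.20), Acsl1 by 2.39 (SE 0.26), Acadl by 2.35 (SE 0.29) and Hadh by 2.34 (SE 0.23). Cpt1b differed by 1.21 (SE 0.18), Acot1 by 2.10 (SE 0.49) and Acot2 by 1.09 (SE 0.23). The 3 members that did not pass were Crat at 0.36 (adjusted p = 0.0915), Cpt1a at 0.08 (adjusted p = 0.580) and Fabp3 at −0.61 (adjusted p = 0.218).

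Ratios between related genes within a library do not depend on library scaling. The ratio of Cpt1b to Cpt1a per length was 77.4, 67.1, 60.7, 71.9 and 104 in floxed BAT libraries FX_1, FX_2, FX_3, FX_5497 and FX_5503. In floxed WV it was 42.0, 19.4, 26.0, 24.3 and 38.6 in libraries FX_5413, FX_5415, FX_5497, FX_5503 and FX_5514. Cpt1b thus dominated in every library of both tissues, and the floxed groups did not overlap. The log2 ratio was higher in BAT by 1.38, with p = 0.00794 in an exact two-sided permutation test, the smallest p that 5 against 5 libraries allow, and 0.0714 after Benjamini-Hochberg adjustment over 9 ratio tests. The BATI4KO ratios were 66.3 ± 17.4 in BAT (SD, n = 6) and 34.2 ± 9.05 in WV (n = 5), beside 76.2 ± 16.6 and 30.1 ± 9.76 in floxed mice.

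The ratio of Acot2 to Acot1 was lower in floxed BAT, at 14.6 ± 6.49, than in floxed WV, at 36.1 ± 13.97 (SD, n = 5 each). The log2 difference was −1.33 (exact permutation p = 0.0159, adjusted 0.0714). The ratio of Acsl5 to Acsl1 was 0.0465 ± 0.0154 in floxed BAT and 0.0295 ± 0.0174 in floxed WV, a log2 difference of 0.77 (exact permutation p = 0.103, adjusted 0.310). For genotype, the 6 ratio tests had exact permutation p-values of 0.198 to 0.754. None of the 9 tests passed after adjustment. In the comparisons of 5 against 5 libraries, a lone ratio could not have passed, even with groups that did not overlap. The lack of passing tests there therefore decides little.

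**Figure D3:**
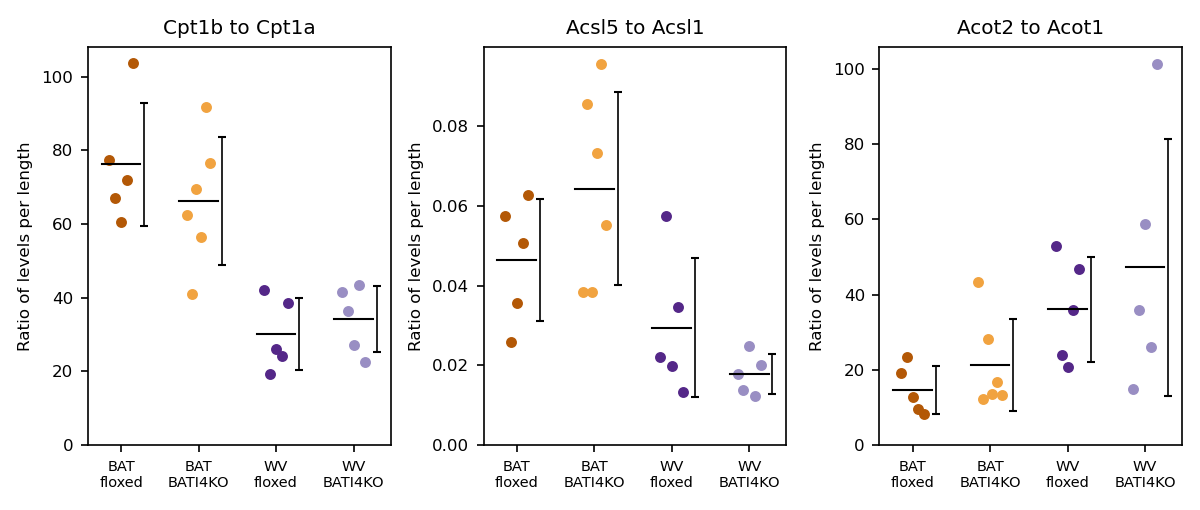
Ratio of the per-length levels of 3 gene pairs (y axis, starting at 0) in each library of the 4 groups; points are libraries, horizontal lines means and bars ± SD. For Cpt1b to Cpt1a, every floxed BAT library lies at 60.7 or above and every floxed WV library at 42.0 or below.

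The question of the brown fat comparison was what the loss of Irf4 changes in the depot itself. No fatty acid oxidation gene passed the test between BATI4KO and floxed BAT (edgeR, adjusted p under 0.05, 16051 genes tested, where 0.0436% of all genes passed in either direction). At an unadjusted p under 0.05, 7 members were lower in BATI4KO and none higher, against 7.24% of all genes lower and 7.5% higher. The fitted difference was below 0 in 27 of 29 members, against 51.2% of all genes. The median of the members was −0.21 on the log2 scale, against −0.01 for all genes. No member had groups that did not overlap, against 0.343% of all genes lower and 0.586% higher without overlap. In whole tissue, fewer brown adipocytes and less RNA per brown adipocyte cannot be told apart. Brown adipocyte markers were lower as well: 0 of 6 had a difference above 0 and their median was −0.51, while 15 of 15 muscle fibre markers were above 0 with a median of 2.69, none of them passing. Their part in the result was not tested beyond the fit with a muscle score given below.

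Activation and hydrolysis genes had the lowest median of the 4 roles, −0.49 over 4 genes. Acot2 was at 22.5, 18.6, 16.9, 28.1 and 31.3 RPKM in floxed libraries FX_1, FX_2, FX_3, FX_5497 and FX_5503, and at 12.5 (lowest), 15.5 (median) and 27.4 (highest) in the 6 BATI4KO libraries. Only KO_5414 lay inside the floxed range. The fitted difference of Acot2 was −0.54 (SE 0.14), adjusted p = 0.162 by edgeR. Acot1 was at 1.18, 0.796, 1.32, 2.97 and 3.79 RPKM in floxed BAT and at 0.307, 1.0 and 2.01 (lowest, median, highest) in BATI4KO BAT, so the groups overlapped, with a difference of −1.04 (SE 0.28), adjusted p = 0.177. Acsl1 was at 577, 600, 503, 807 and 1115 RPKM in floxed BAT and at 401, 537 and 696 in BATI4KO BAT. Within each title style the BATI4KO libraries lay below the floxed ones, and the difference was −0.43 (SE 0.12), adjusted p = 0.177. Acsl5 stood apart from these with 33.1, 15.5, 18, 40.9 and 69.9 RPKM in floxed and 17.1, 33.2 and 66.7 in BATI4KO BAT. Its difference was −0.03 (SE 0.26), adjusted p = 0.971, and took either sign across settings.

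Among the transport genes, the median difference was −0.20. Slc22a5, which takes carnitine up across the plasma membrane, was at 29.2, 31.8, 33.6, 45.7 and 32.3 RPKM in floxed BAT and at 21.8, 26.8 and 30.1 in BATI4KO BAT. The groups overlapped by a single BATI4KO library, and the difference was −0.42 (SE 0.13), adjusted p = 0.195 by edgeR. Slc25a20 was at 209, 171, 141, 247 and 317 RPKM in floxed and at 134, 163 and 245 in BATI4KO BAT, a difference of −0.34 (SE 0.12), adjusted p = 0.214. Cpt1b was at 312, 276, 240, 328 and 395 RPKM in floxed and 184, 285 and 384 in BATI4KO BAT, a difference of −0.20 (SE 0.12), adjusted p = 0.475. Cpt1a was at 4.03, 4.11, 3.96, 4.57 and 3.80 RPKM in floxed and 3.55, 4.23 and 5.48 in BATI4KO BAT, a difference of 0.06 (SE 0.10), adjusted p = 0.822.

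The mitochondrial genes lay close together, with all 15 differences between −0.31 and −0.12 and a median of −0.21. Of these, Etfdh, which passes electrons from the flavoprotein to ubiquinone, and the flavoprotein subunit Etfa had an unadjusted p under 0.05. The 3 peroxisomal genes were at −0.51 (Ehhadh), −0.20 (Hsd17b4) and 0.05 (Acaa1a).

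**Figure D4:**
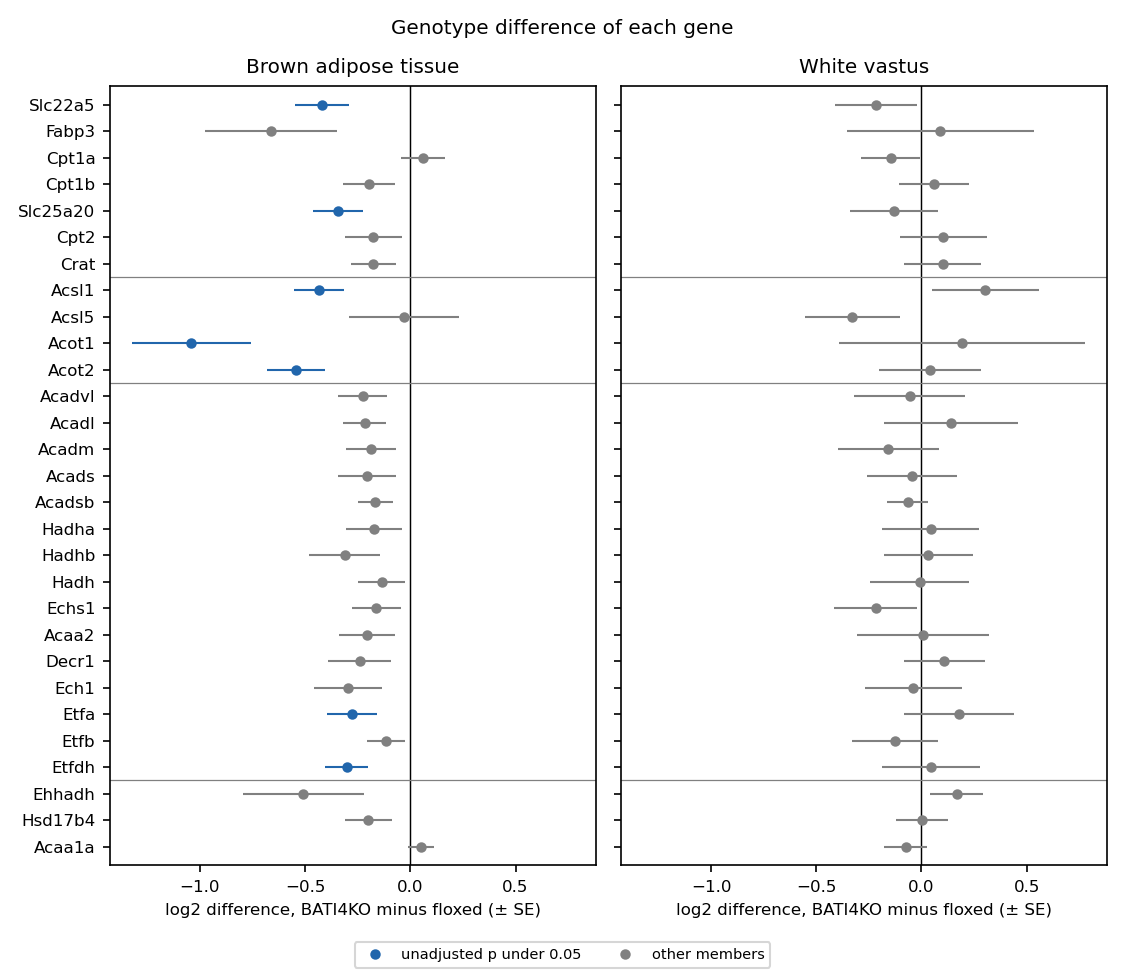
Fitted log2 difference between BATI4KO and floxed mice (x axis, ± SE) for each of the 29 genes in BAT (left) and WV (right); blue points have an unadjusted p under 0.05. In BAT 27 of 29 points lie below 0 and none passed after adjustment, and in WV 13 of 29 lie below 0.

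The brown fat result varied with the libraries and the tool. In the short-number libraries alone (3 against 3) the members' median was −0.29, with 10 members lower at an unadjusted p under 0.05 against 3.69% of all genes. In the long-tag libraries alone (2 against 3) it was −0.06, with 5 members lower against 6.56%. DESeq2 called 3 members lower, Acsl1 (adjusted p = 0.00952), Acot1 (0.0194) and Acot2 (0.0210), against 1.09% of all genes, and limma voom called none. Leaving out FX_5497 raised the count at an unadjusted p under 0.05 to 17 against 8.7% of all genes, and leaving out KO_5414 raised it to 13 against 7.59%. With the muscle fibre score as a covariate, 25 members were below 0, the median was −0.16 and 2 members were lower, against 3.18% of all genes. Without the title-style covariate, 26 members were below 0 and their median was −0.13. In that fit 3 members were lower at an unadjusted p under 0.05, against 3.32% of all genes. With library totals in place of TMM scaling, which shift the median of all genes to 0.13, the members' median was −0.07.

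Title style went with the level of the pathway in BAT. The mean of the long-tag libraries was above that of the short-number libraries in 25 of 29 members in floxed and in 28 of 29 in BATI4KO mice. The share of all genes with the same direction was not counted, so these counts cannot be called particular to the pathway. Ehhadh, for example, averaged 45.3 RPKM in short-number and 111 in long-tag floxed libraries. The summed level of the 29 genes was 7971 to 9467 RPKM in short-number and 9388 and 12548 in long-tag floxed libraries. In BATI4KO mice the sums were 6441 to 6576 and 9183 to 11603 RPKM. Brown adipocyte markers summed to 2866 to 3572 CPM in short-number and 4725 and 8115 CPM in long-tag floxed libraries, and to 1970 to 2570 and 3751 to 5146 CPM in BATI4KO libraries. The sum of the brown adipocyte markers thus stood higher in the long-tag libraries of each genotype without overlap. The sum of the 29 genes did so in BATI4KO mice, while in floxed mice FX_5497 lay below FX_1. Ucp1 was the largest part of the marker sum, and 2 of the 6 markers went the other way in floxed mice. Cox7a1 was at 99.9, 89.9 and 174 CPM in FX_1 to FX_3 and at 35.0 and 47.8 in FX_5497 and FX_5503. Cox8b was at 228, 210 and 341 CPM against 107 and 141. In BATI4KO mice Cox7a1 was also lower in the long-tag libraries, at 45.8 to 51.0 against 61.4 to 84.8 CPM. Cox8b leaned the same way there, at 119 to 151 against 149 to 167 CPM, with overlap. What the title style stands for is not given in the labels.

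In white vastus, the comparison asked whether loss of Irf4 in brown fat was accompanied by changes in a muscle. None of the 29 genes passed (edgeR, 14529 genes tested, 0.00688% of all genes passing), and none reached an unadjusted p under 0.05, against 8.91% of all genes. DESeq2 and limma voom called none either. The median of the members was 0.01, as against −0.01 for all genes, with 13 members below 0, against 51.5% of all genes. The smallest p belonged to Acsl5, at 2.56, 4.38, 2.21, 2.29 and 1.99 RPKM in floxed libraries FX_5413, FX_5415, FX_5497, FX_5503 and FX_5514 and 2.83, 1.61, 2.19, 2.36 and 1.85 in BATI4KO libraries KO_5492 to KO_5496. The difference was −0.33 (SE 0.23), adjusted p = 0.705. Ehhadh differed by 0.17 (SE 0.13), Acsl1 by 0.30 (SE 0.25), Slc22a5 by −0.22 (SE 0.19), Echs1 by −0.22 (SE 0.20), Cpt1a by −0.15 (SE 0.14), Cpt1b by 0.06 (SE 0.17), Acot1 by 0.19 (SE 0.58) and Acot2 by 0.04 (SE 0.24), with adjusted p-values of 0.705 to 0.975.

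The white vastus libraries differed among themselves within each genotype. The number of members above their mean over the tissue was 24, 4, 24, 2 and 26 of 29 in floxed libraries FX_5413, FX_5415, FX_5497, FX_5503 and FX_5514. In BATI4KO libraries KO_5492, KO_5493, KO_5494, KO_5495 and KO_5496 it was 27, 3, 1, 28 and 4. In each library, then, most members lay on the same side of their mean. The share of all genes above their mean in these libraries was not counted, so this cannot be called particular to the pathway. Acaa2 shows the size of this spread, at 144, 82.3, 139, 64.0 and 155 RPKM in floxed and 176, 77.5, 75.9, 183 and 83.2 RPKM in BATI4KO libraries. Slow fibre markers, which mark an oxidative fibre type, summed to 132, 71.3, 245, 55.9 and 763 CPM in floxed and 2315, 135, 67.1, 3134 and 98.4 CPM in BATI4KO libraries. The libraries with most members above the mean also held the higher slow fibre sums in floxed mice, and in BATI4KO mice libraries KO_5492 and KO_5495 were highest in both. Across genotypes the sums did not separate them, with 132 CPM in FX_5413 and 135 in KO_5493. Fast myosins were looked at after these values were seen. In FX_5413, FX_5497, FX_5514, KO_5492 and KO_5495, Myh1 was at 9008 to 23551 CPM, against 2209 to 7226 in the remaining WV libraries. Myh2 was at 2127 to 7883 against 661 to 2073 CPM. Myh4 overlapped, at 42242 to 80237 against 57466 to 127474 CPM. The part of fibre type was not tested beyond the slow fibre score. All 7 slow fibre markers had a genotype difference above 0, with a median of 2.58 and none passing. With the slow fibre score as a covariate, the members' median was −0.19, 26 of 29 were below 0, against 51.7% of all genes, and 7 had an unadjusted p under 0.05, against 6.67% of all genes, with none passing after adjustment.

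**Figure D5:**
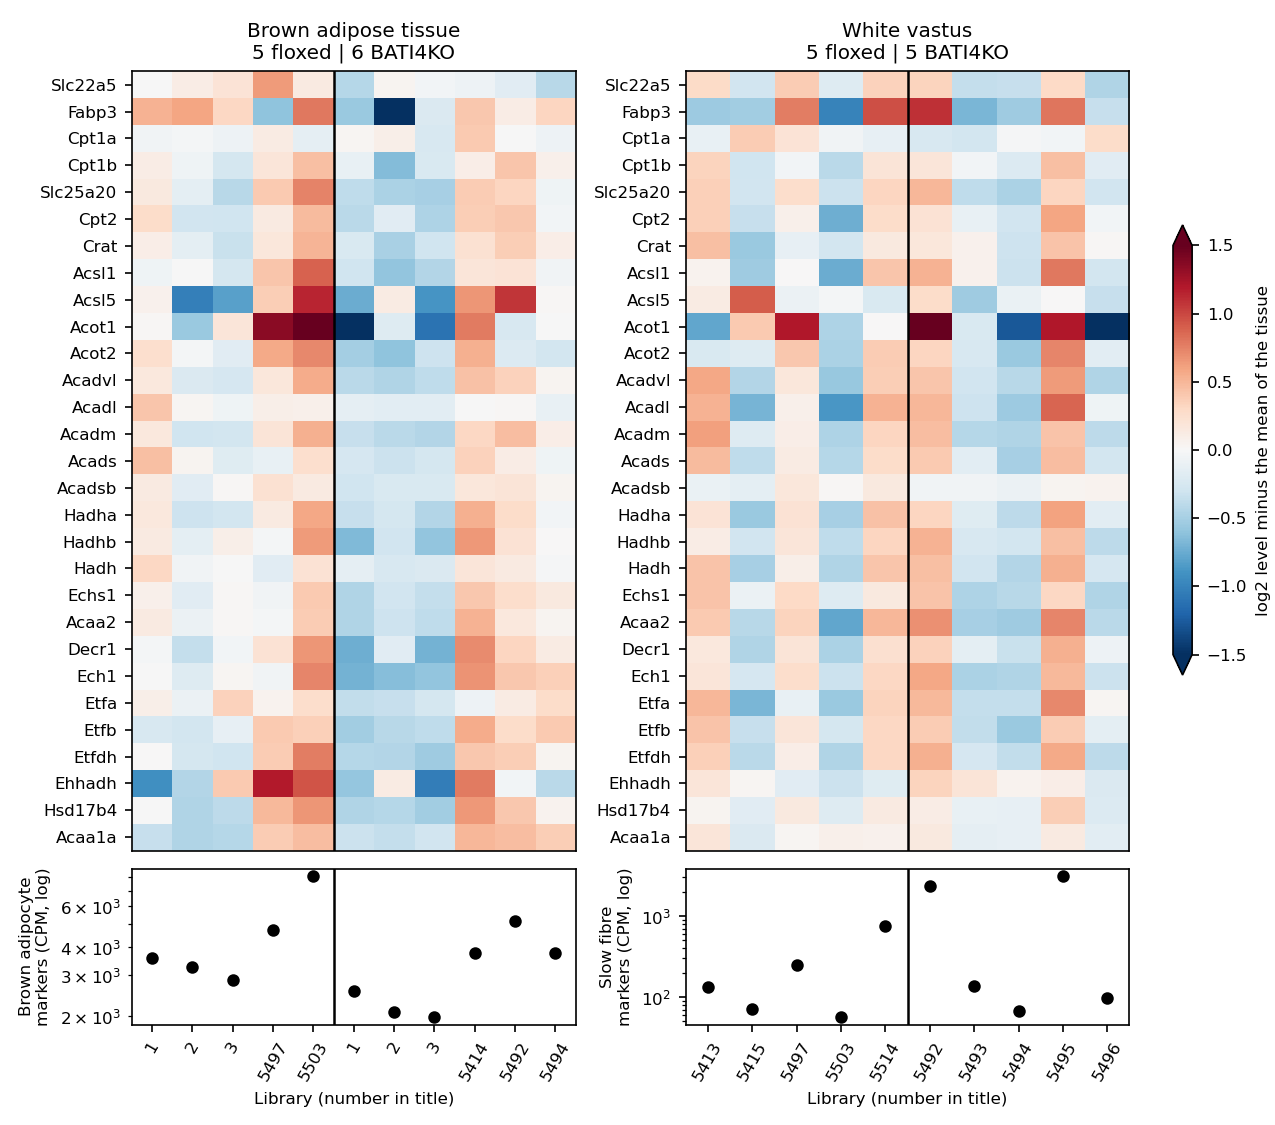
Upper panels: log2 level of each of the 29 genes in each library minus the gene's mean over the tissue (colour, with red above and blue below), with floxed libraries left of the line. Lower panels: summed brown adipocyte markers in BAT and slow fibre markers in WV (CPM, log scale) in the same libraries; WV libraries KO_5492 and KO_5495 hold 2315 and 3134 CPM of slow fibre markers and have 27 and 28 genes above the mean.

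Within genotype, the median SD of the log2 level between libraries was 0.38 in BAT and 0.40 in WV. All BAT values of this paragraph were taken across both title styles, which differed in level, while WV has long tags only. The SDs of the 2 tissues are therefore not measured alike. Cpt1a was among the steadiest members, with 0.17 in BAT and 0.22 in WV. Acot1 had the widest spread, 0.94 in BAT and 1.16 in WV. Acadl was steady in BAT (0.13) and variable in WV (0.63), while Ehhadh was variable in BAT (0.76) and steady in WV (0.20).

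The genotype effect in BAT was not shown to differ from that in WV for any member. The interaction test passed in 0 of 29 (edgeR), against 0.018% of all genes, and DESeq2 and limma voom called none. At an unadjusted p under 0.05, 1 member was lower in BAT relative to WV, against 5.04% of all genes. This was Acsl1, at −0.75 (SE 0.32), adjusted p = 0.411. Acot2 was at −0.60 (SE 0.30), Ehhadh at −0.69 (SE 0.35), Acot1 at −1.26 (SE 0.65), Etfa at −0.47 (SE 0.32), Cpt1b at −0.27 (SE 0.24), Cpt1a at 0.19 (SE 0.17) and Acsl5 at 0.28 (SE 0.37). The median of the members was −0.23, against 0.02 for all genes, and 25 of 29 were below 0, against 48.2%. With library totals the median was −0.03 and 18 were below 0.

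Other enzymes of fatty acid oxidation were taken from a list of 46, of which 44 were found. In BAT, none of the 43 tested passed between genotypes, and 33 were below 0, against 51.2% of all genes. At an unadjusted p under 0.05, 7 were lower, against 7.24% of all genes, and 1 was higher, against 7.5%. In WV none of 38 passed and none had an unadjusted p under 0.05, against 8.91% of all genes. Between tissues in floxed mice, 31 of 44 were higher in BAT, against 34.1% of all genes, and 6 were lower, against 31.7%. Slc27a2, a fatty acid transporter and very-long-chain synthetase, was at 290 CPM in floxed BAT and 0.0339 CPM in floxed WV. The peroxisomal thiolase Acaa1b was at 10.8 against 0.0159 CPM, and the peroxisomal thioesterase Acot4 at 11.6 against 0.234 CPM. Acot3 was at 0.532 CPM in floxed BAT and at 0 in the floxed WV libraries. In the other direction, the synthetase Acsl6 was at 0.103 CPM in floxed BAT and 45.4 CPM in floxed WV. All 5 passed the edgeR test, with adjusted p-values of at most 1.02e-04.

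Of 20 regulators and inputs of the pathway, all were tested, and Irf4 alone passed between genotypes in BAT, at −2.45 (SE 0.24), adjusted p = 0.00260 by edgeR. None passed in WV. Irf4 also passed the interaction test, with a genotype effect in BAT below that in WV by a log2 difference of −1.98 (SE 0.31), adjusted p = 0.0136 by edgeR, and was the only regulator to do so, where 0.018% of all genes passed. At an unadjusted p under 0.05 in BAT, 3 of the 20 were lower, against 7.24% of all genes, and 1 was higher, against 7.5%. The 3 were Irf4, Pdk4 and Ucp3, the last 2 named after their values were seen, as was the higher one, Esrrg. Pdk4, which diverts pyruvate from oxidation, was at 2269 ± 402 CPM in floxed (SD, n = 5) and 1568 ± 304 in BATI4KO mice (n = 6), a difference of −0.54 (SE 0.16), adjusted p = 0.193. Ucp3, an uncoupling protein of muscle and brown fat, differed by −0.33 (SE 0.10), adjusted p = 0.194, and the estrogen-related receptor Esrrg by 0.32 (SE 0.13), adjusted p = 0.297. In WV, 3 regulators were lower at an unadjusted p under 0.05, against 5.68% of all genes, and 1 was higher. The share of all genes in either direction was 8.91%. Named after their values were seen, the lower ones were Irf4 itself at −0.48 (SE 0.19), Ucp3 at −0.92 (SE 0.23) and Angptl4 at −1.27 (SE 0.33). The higher one was Ppargc1b at 0.79 (SE 0.29). Their adjusted p-values were 0.329 to 0.489 by edgeR. Between tissues in floxed mice, 12 of 20 regulators were higher in BAT, against 34.1% of all genes, and 5 were lower, a share near the 31.7% of all genes. Pparg, the nuclear receptor of adipocytes, was higher in BAT by 6.34 (SE 0.25), the acetyl-CoA carboxylase Acaca by 5.89 (SE 0.39), the lipase inhibitor Angptl4 by 5.15 (SE 0.33) and Ppara, the nuclear receptor of fatty acid oxidation, by 3.10 (SE 0.47). Prkaa2, the AMP-activated kinase subunit of muscle, was lower in BAT, at −4.34 (SE 0.28). All 5 passed the edgeR test, with adjusted p-values of at most 5.58e-06.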

How the data were processed

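For each tissue, the file deposited by the authors lists unnormalised counts of reads per gene model in each library, beside the model's symbol and length. Software named in the submitters' processing notes comprises featureCounts 1.4.6 (counting), TopHat2 2.0.14 (alignment), Picard 2.2.4, SAMtools 0.1.19, bcl2fastq 2.17.1.14 and edgeR, with build mm9. Settings, strand handling and duplicate removal are not given there. The genes, lists and tests were chosen with earlier results of these data known. Counts were filtered by edgeR's expression filter, TMM-scaled and tested by quasi-likelihood in edgeR 4.0.16 under R 4.3.3, with adjustment over all genes tested (threshold 0.05). Title style was a covariate in BAT; WV had none, and tissue contrasts and the interaction came from a fit over all 21 libraries. RPKM and CPM used TMM-scaled totals over all 21. Named were all passing genes and the 5 smallest p per genotype comparison, up to 8 per direction for tissue, up to 5 passing per pathway list, and Cpt1a, Cpt1b, Acsl1, Acsl5, Acot1 and Acot2. Alternatives were other scalings, filters, covariates and library subsets, DESeq2 1.42.0, limma 3.58.1 voom and each library left out. The fits were tested on simulated data. Replicate libraries differed by more than sampling noise (smallest chi-square per gene 30.4), so all were kept. A count is a read and not an independent molecule.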

Additional observations from a re-analysis of the deposited data

Results flagged for a closer look

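In 5 of 128 sets of libraries (29 genes and 3 ratios in 4 groups), 1 library lay far from the rest of its group by Dixon's test at 95%, a rule that chance meets in about 1 in 20 sets. Acot2 in BATI4KO BAT was at 27.4 RPKM in library KO_5414 and at 12.5 to 16.4 in the others. Slc22a5 in floxed BAT was at 45.7 RPKM in library FX_5497, with the others at 29.2 to 33.6. Acadl in floxed BAT was at 864 RPKM in library FX_1 and at 619 to 689 in the others. Ech1 in floxed BAT was at 1062 RPKM in library FX_5503, with the others at 559 to 654. Acsl5 in floxed WV was at 4.38 RPKM in library FX_5415 and at 1.99 to 2.56 in the others. The genotype effect on Irf4, the targeted gene, differed between the tissues by the interaction test, with a log2 difference of −1.98 (SE 0.31), adjusted p = 0.0136 by edgeR. For none of the 29 fatty acid oxidation genes did the genotype effect pass that test.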

How the results depend on the processing

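The number of members passing between genotypes in BAT was 0 in every edgeR and voom setting run and 3 with DESeq2. In WV and in the interaction it was 0 in every setting run. With each library left out, the members' median ran from −0.28 to −0.14 in BAT, −0.11 to 0.12 in WV, 2.14 to 2.44 for the tissue difference in floxed and 1.94 to 2.27 in BATI4KO mice, and −0.34 to −0.14 for the interaction. With library totals the tissue medians moved to 3.05 in floxed and 2.9995 in BATI4KO mice, with all genes at 0.79 and 1.09. Without the title-style covariate the floxed median was 1.99 and 25 members passed, beside 11614 of all genes in either direction. Taken relative to the median of all genes, an alternative added after the data were seen, the floxed median was 2.22.

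Single genes near 0 changed sign, and the cause was not tested. Acsl5 in BAT was at 0.0085 with upper-quartile scaling, 0.10 with library totals, 0.0348 without the covariate, 0.0838 in short-number libraries alone and 0.47 with the muscle score, and at −0.23 to 0.15 with each library left out. In WV, library totals gave −0.0231 for Cpt1b and −0.0649 for Acot2, the slow fibre score −0.0583 for Cpt1b, −0.19 for Acot2 and −0.64 for Acot1, and voom −0.13 for Acot1. Leaving out single libraries gave −0.0502 to 0.16 for Cpt1b, −0.35 to 0.59 for Acot1, −0.17 to 0.17 for Acot2 and, for the log2 ratio of Acot2 to Acot1, −0.18 to 0.52 in WV. Cpt1a ran from −0.0009 to 0.12 in BAT and, for the tissue difference in BATI4KO mice, from −0.032 to 0.18. In floxed mice it was at 0.0104 with upper-quartile scaling and 0.56 with library totals, and in BATI4KO mice at 1.04 with library totals (edgeR adjusted p = 2.26e-05).

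With the short number as a replicate block, 0 members passed in BAT and the median was −0.20. At an unadjusted p under 0.05, 7 members were lower in that fit, against 6.25% of all genes. With the title tag as a block in the 8 libraries whose tag occurs in both tissues, 26 members passed in floxed and 24 in BATI4KO mice. Over all genes, 9425 and 9244 passed there in either direction. In that fit Acot1 in BATI4KO mice was at 1.53 (edgeR adjusted p = 0.0819), and Acsl5 in the interaction at −0.34. Same-numbered libraries did not deviate together: the correlations of their deviations were 0.131, −0.106 and 0.075 for short numbers 1, 2 and 3, and −0.084 to 0.113 for the 4 tags. The main fits did not take the numbers to pair libraries. Such low correlations cannot show that same-numbered libraries came from different mice. If a shared tag marks 1 mouse, the main tissue and interaction fits leave that pairing out. Depth limits Acot1 most, with 5 to 72 reads per WV library, and a filter of 1 CPM removed it from the WV fit.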
